A study of Mus musculus with 6 samples.

Results

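Type IV collagen is the sheet-forming collagen of basement membranes, and its chains are encoded in the mouse by 6 genes, Col4a1 to Col4a6. Every probe set that the array annotation assigns to exactly 1 symbol, and to one of these genes, was taken, which gave 9 probe sets for the 6 genes of the 22626 mouse probe sets and 12393 genes measured. Lungs of Igf1-/- embryos, which lack a working Igf1 allele in every tissue, were compared with lungs of Igf1+/+ embryos at embryonic day 18.5, with 3 arrays per genotype. Embryos of both genotypes came from heterozygous parents on a C57BL/6J background, were delivered by caesarean section and were helped to breathe before the lungs were taken. The labels speak of lungs pooled for RNA while the methods describe independent samples per genotype, and which of these holds is not settled, so the p values measure the spread between these arrays. Values are log2 expression per probe set, on which a difference of 1 is a doubling. They rank samples within a probe set but do not rank 1 gene against another. A gene was said to rise or fall at a Benjamini-Hochberg adjusted p under 0.10 in limma.

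Chains of type IV collagen join as trimers inside the cell and are linked into networks after secretion. The network of Col4a1 and Col4a2 chains is found in almost all basement membranes. That of Col4a3, Col4a4 and Col4a5 chains is known from the kidney glomerulus and the lung alveolus, and defects in these genes cause Alport syndrome in humans. Chains of Col4a5 and Col4a6 form a further network, known around smooth muscle. The genes lie head to head in pairs, Col4a1 beside Col4a2 on chromosome 8, Col4a3 beside Col4a4 on chromosome 1 and Col4a5 beside Col4a6 on chromosome X. The members of a pair are read in opposite directions from neighbouring starts.

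The RefSeq table for the GRCm38.p6 build held a promoter window, from 250 bases before to 50 bases after the start, for 5 of the 6 genes, all but Col4a3. The windows of Col4a1 (minus strand) and Col4a2 (plus strand) shared 78 bases, and their starts were 21 bases apart. These starts crossed: the 250 bases before them were at chr8:11312827-11313076 for Col4a1 and chr8:11312555-11312804 for Col4a2. The 250 bases before each of these 2 starts thus lay on the side into which the other gene is read. The windows of Col4a5 (plus strand) and Col4a6 (minus strand) were separated by 842 bases, with starts 1343 bases apart. Windows are shown for Col4a4, the available member of the pair with the largest differences between genotypes, and for Col4a5 and Col4a6, the pair whose members had values of opposite sign at their brightest probe sets. Each line gives the 250 bases before the start, 5′ to 3′ on the strand of the gene, at chr1:82586850-82587099 (minus strand) for Col4a4, chrX:141475169-141475418 (plus strand) for Col4a5 and chrX:141474077-141474326 (minus strand) for Col4a6. Capitals mark a GC box (GGGCGG) or a CCAAT box (CCAAT) on either strand.
Col4a4: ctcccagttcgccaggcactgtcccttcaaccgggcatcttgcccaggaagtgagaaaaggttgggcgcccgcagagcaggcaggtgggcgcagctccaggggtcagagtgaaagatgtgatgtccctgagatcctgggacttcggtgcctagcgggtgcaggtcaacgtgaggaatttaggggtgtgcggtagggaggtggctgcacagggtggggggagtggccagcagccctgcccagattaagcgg
Col4a5: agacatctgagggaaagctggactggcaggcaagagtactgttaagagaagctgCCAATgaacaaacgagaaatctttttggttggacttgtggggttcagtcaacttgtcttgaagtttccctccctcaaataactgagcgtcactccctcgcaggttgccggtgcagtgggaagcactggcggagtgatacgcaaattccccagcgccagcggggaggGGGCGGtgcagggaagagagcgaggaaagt
Col4a6: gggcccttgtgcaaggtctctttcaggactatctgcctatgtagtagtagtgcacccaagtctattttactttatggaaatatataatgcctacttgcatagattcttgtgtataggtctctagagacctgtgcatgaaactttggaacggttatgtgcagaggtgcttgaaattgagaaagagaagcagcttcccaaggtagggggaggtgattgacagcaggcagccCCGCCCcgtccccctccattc
The Col4a4 stretch held neither box, while Col4a5 held 1 of each and Col4a6 held 1 GC box. In the 250 bases before their starts Col4a1 held 1 CCAAT box and Col4a2 held 2 GC boxes and 1 CCAAT box. No TATA box (TATAAA, either strand) was present in any of the 5 stretches. Over the 32851 windows of the table, 32.7% had a GC box, 33.8% a CCAAT box and 12.4% a TATA box in the same 250 bases, and no matches of different motifs overlapped in the 5 stretches. The share of G and C bases was 74.4% for Col4a1, 73.6% for Col4a2, 62.8% for Col4a4, 54.0% for Col4a5 and 47.6% for Col4a6, against a median of 52.4% over all windows. The windows of the pair on chromosome 8 were thus also the richest of the 5 in CpG, with 31 for Col4a1 and 26 for Col4a2, against 10 for Col4a4, 10 for Col4a5, 3 for Col4a6 and a median of 6.

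The arrays were alike, with pairwise correlations of 0.992 to 0.996 and medians of 6.85 to 6.89. Markers of alveolar type II cells, the surfactant-making cells that define lung, had mean log2 values of 12.36 to 12.66 on the 6 arrays. At the brightest of 3 probe sets, Igf1 itself was at 8.87, 8.99 and 9.38 in the Igf1-/- lungs and at 9.28, 9.85 and 9.65 in the Igf1+/+ lungs. Its log2 fold change was -0.51 there (limma adjusted p = 0.267), -0.42 at 1452014_a_at (adjusted p = 0.327) and -0.58 at 1419519_at (adjusted p = 0.152). At 1419519_at all Igf1-/- values were under all Igf1+/+ values. Where the Igf1 probe sets lie relative to the deletion is not known here. Xist, the RNA of the inactive X chromosome, was at 7.09 in Igf1-/- replicate 1 and 3.50 in Igf1+/+ replicate 3 and at 12.10 to 12.22 in the other 4 arrays, so 1 array of each genotype differed from the rest in this RNA. Igf1-/- replicate 3 stood apart in cardiac muscle markers, with Nppa, the atrial natriuretic peptide gene, at 7.29 against 4.21 to 4.44 in the other 5 arrays. In limma 126 probe sets (0.557% of those tested) passed an adjusted p of 0.10, 37 higher and 89 lower in Igf1-/-.

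Across the type IV collagen probe sets, the values of Igf1-/- lungs were lower at 6 and higher at 3, and the largest differences were at the neighbouring genes Col4a3 and Col4a4. None of the 9 passed an adjusted p of 0.10 in limma. At an adjusted p of 0.20, the other level used in the methods, 1 was lower, Col4a4, where 1.62% of all probe sets were. Without adjustment 3 were lower at p under 0.05, Col4a2, Col4a3 and Col4a4, against 6.28% of all probe sets, and none was higher. Groups that did not overlap, with all 3 Igf1-/- values under all 3 Igf1+/+ values, occurred at 2, Col4a3 and Col4a4, against 7.26% of all probe sets. The median log2 fold change was -0.12 over the 9 probe sets and 0.03 over all probe sets.

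**Figure D1:**
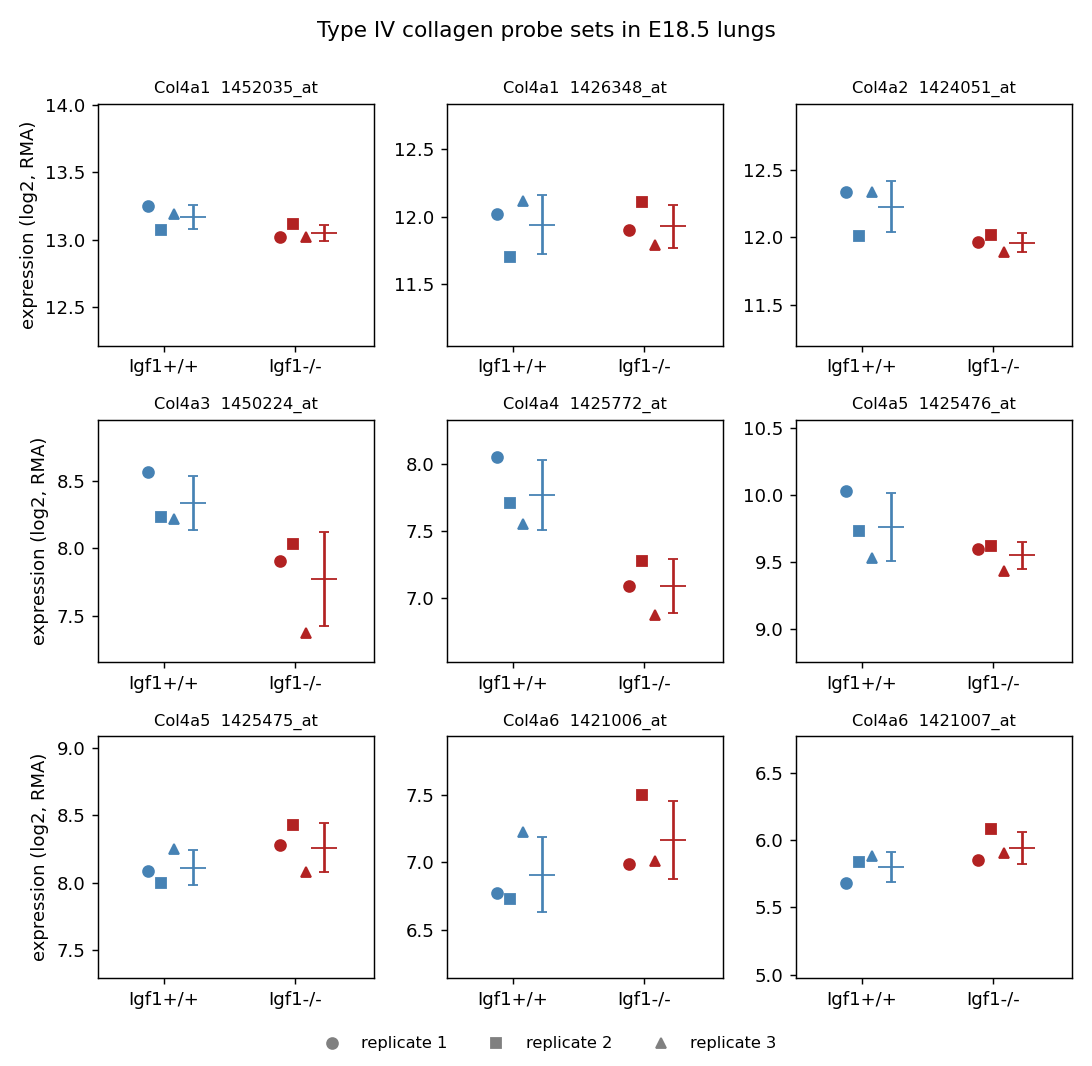
Expression (log2, vertical axis) of each type IV collagen probe set in the 3 Igf1+/+ (blue) and 3 Igf1-/- (red) lung arrays; symbols are replicates, the horizontal tick with bars is the mean ± SD, and every panel spans the same range of log2 units. At Col4a3 and Col4a4 all red points lie under all blue points, and at the other 7 probe sets the genotypes overlap.

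Col4a3 encodes a chain whose end domain is the target of antibodies in Goodpasture disease of kidney and lung. At its single probe set (1450224_at) the Igf1-/- lungs had log2 values of 7.91, 8.03 and 7.37 and the Igf1+/+ lungs 8.57, 8.23 and 8.22. The genotypes did not overlap, and Igf1-/- replicate 3, the array that stood apart in cardiac markers, was the lowest. The log2 fold change was -0.57 (SE 0.17, 95% interval -0.96 to -0.19), 1.49-fold lower in Igf1-/- (limma adjusted p = 0.236). Without Igf1-/- replicate 3 it was -0.37 (adjusted p = 0.457).

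Col4a4 encodes the partner chain in the same network. Its probe set (1425772_at) read 7.09, 7.28 and 6.88 in Igf1-/- lungs and 8.05, 7.71 and 7.55 in Igf1+/+ lungs. Again the genotypes did not overlap and Igf1-/- replicate 3 was the lowest, while Igf1+/+ replicate 1 was the highest at both genes. The mean was 7.09 ± 0.20 (SD, n = 3) against 7.77 ± 0.26 (SD, n = 3), a log2 fold change of -0.68 (SE 0.14, 95% interval -1.01 to -0.36) or 1.61-fold lower in Igf1-/- (limma adjusted p = 0.110). By p value it was number 212 of all probe sets. The adjusted p lay close to the level of 0.10 and crossed it with some settings: it was 0.0523 without Igf1+/+ replicate 3 (log2 fold change -0.80) and 0.341 without Igf1-/- replicate 3 (log2 fold change -0.58). The log2 fold change kept its sign whichever array was left out, from -0.80 to -0.54.

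Markers of alveolar type I cells, the thin cells that line the air space and are known in mouse to make Col4a3 and Col4a4, moved with these genes. Of 8 measured markers of 11 listed, 7 were lower in Igf1-/-, 6 of them at an unadjusted p under 0.05 (5.66% of all genes were), and 2 fell (0.452% of all genes did), Aqp5, a water channel (log2 fold change -0.98, limma adjusted p = 0.0173), and Rtkn2 (-1.67, adjusted p = 0.0382). Without Igf1-/- replicate 3 the adjusted p of Rtkn2 was 0.166, without Igf1-/- replicate 1 it was 0.149 and without Igf1+/+ replicate 1 it was 0.140. The mean log2 value over the list was 10.07 to 10.37 in Igf1-/- arrays and 10.63 to 10.75 in Igf1+/+ arrays, without overlap, and the part of these cells in the Col4a3 and Col4a4 values was not tested. In whole lung RNA, fewer cells of a type and less RNA per cell cannot be told apart. Type I cells were not alone in this. Of 4 measured erythroid markers 2 fell, Slc4a1, the red cell anion exchanger (log2 fold change -1.64, limma adjusted p = 0.000146), and Alas2, the erythroid heme synthesis enzyme (-0.87, adjusted p = 0.0754). The other 2, Epb42 (0.10) and Hba-a1 (0.12), had higher values in Igf1-/- and did not pass the test. Both had low signal, with mean log2 values of 4.42 and 3.99 against a median of 6.88 over all probe sets. The erythroid list mean was 6.23 to 6.37 in Igf1-/- and 6.83 to 6.93 in Igf1+/+ arrays. Of 9 leukocyte markers 7 were higher, 6 of them at an unadjusted p under 0.05. Cd52 rose among them (0.47, adjusted p = 0.0665), and the list means were 8.60 to 8.84 and 8.34 to 8.50. Of 4 mesothelial markers 2 had higher and 2 lower values, with a median log2 fold change of -0.02. Msln fell among them (-0.65, adjusted p = 0.0389), and the list means were 8.75 to 8.88 and 8.93 to 9.0. Of 6 club and ciliated cell markers 5 were higher and none passed the test (4 higher at an unadjusted p under 0.05), with list means of 9.34 to 9.59 and 9.10 to 9.27, and all 6 markers of oesophagus and skin epithelium were higher with none past the test (1 at an unadjusted p under 0.05), with list means of 5.53 to 5.58 and 5.32 to 5.49. The means of these 5 lists did not overlap between genotypes either, and their part in the type IV collagen values was not tested. Leaving out 1 array kept the call of Slc4a1 each time, while that of Cd52 was lost without any 1 array other than Igf1+/+ replicate 3 (adjusted p = 0.121 to 0.214), and those of Alas2 and Msln had adjusted p values of up to 0.254 and 0.141. The Alas2 call was lost without Igf1-/- replicate 2 or 3 or Igf1+/+ replicate 1 or 2, and that of Msln without Igf1-/- replicate 1 or 3 or Igf1+/+ replicate 1 or 2. Among the remaining lists, 10 of 12 endothelial markers were lower and none passed the test (3 at an unadjusted p under 0.05), with list means of 9.96 to 10.14 in Igf1-/- and 10.13 to 10.32 in Igf1+/+ arrays. Of 8 alveolar type II markers 7 were higher and none passed the test (3 higher and 1 lower at an unadjusted p under 0.05), with list means of 12.42 to 12.66 in Igf1-/- and 12.36 to 12.56 in Igf1+/+ arrays. The 7 cardiac markers had a list mean of 8.31 to 9.69 in Igf1-/- and 8.19 to 8.37 in Igf1+/+ arrays. Of 9 smooth muscle and pericyte markers 7 were lower and 2 higher (1 lower at an unadjusted p under 0.05), with list means of 8.74 to 8.96 and 8.89 to 8.93. Of 9 fibroblast and mesenchyme markers 5 were higher and 4 lower (2 lower at an unadjusted p under 0.05), with list means of 10.83 to 11.27 and 11.03 to 11.12. Of 10 measured cochlea markers 5 were higher and 5 lower (1 lower at an unadjusted p under 0.05), with list means of 4.69 to 4.73 and 4.72 to 4.78. None of the smooth muscle, fibroblast or cochlea markers passed the test.

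Col4a1 and Col4a2 make the common network of basement membranes. At the single Col4a2 probe set (1424051_at) the Igf1-/- lungs read 11.97, 12.02 and 11.89 and the Igf1+/+ lungs 12.34, 12.01 and 12.34. The Igf1-/- values were close together, and the genotypes overlapped through Igf1+/+ replicate 2. The log2 fold change was -0.27 (SE 0.10, 95% interval -0.50 to -0.04, limma adjusted p = 0.340). Leaving out 1 array at a time gave -0.38 to -0.21.

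Col4a1 was measured by a pair of probe sets. The brighter (1452035_at) read 13.02, 13.12 and 13.02 in Igf1-/- and 13.25, 13.07 and 13.19 in Igf1+/+ lungs. Its log2 fold change was -0.12 (SE 0.08, 95% interval -0.30 to 0.06, adjusted p = 0.560). The dimmer (1426348_at) read 11.90, 12.11 and 11.79 against 12.02, 11.70 and 12.12, with a log2 fold change of -0.01 (95% interval -0.29 to 0.28, adjusted p = 0.983). At both probe sets the genotypes overlapped, and the interval of the brighter leaves room for a decrease of 0.30 but not for one of the size of the Col4a4 estimate.

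Col4a5 and Col4a6 are the X-linked chains, and Col4a5 also takes part in the network of Col4a3 and Col4a4. The brighter Col4a5 probe set (1425476_at) was at 9.60, 9.62 and 9.43 in Igf1-/- and at 10.03, 9.73 and 9.53 in Igf1+/+ lungs, with a log2 fold change of -0.21 (SE 0.12, 95% interval -0.49 to 0.07, adjusted p = 0.511). It was -0.08 without Igf1+/+ replicate 1 and -0.33 without Igf1+/+ replicate 3. The other (1425475_at) was at 8.28, 8.43 and 8.08 against 8.09, 8.0 and 8.25, a log2 fold change of 0.15 (SE 0.11, 95% interval -0.10 to 0.39, adjusted p = 0.603), and 0.06 without Igf1-/- replicate 2. The estimates for Col4a5 thus had opposite signs, the genotypes overlapped at both, and their mean per array gave -0.03.

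For Col4a6 both estimates were above 0. The brighter probe set (1421006_at) read 6.99, 7.50 and 7.01 in Igf1-/- and 6.77, 6.73 and 7.23 in Igf1+/+ lungs, with Igf1-/- replicate 2 the highest. The log2 fold change was 0.25 (SE 0.17, 95% interval -0.13 to 0.64, adjusted p = 0.565), 0.09 without that array and 0.41 without Igf1+/+ replicate 3. The dimmer (1421007_at), under the median of all probe sets, read 5.85, 6.08 and 5.90 against 5.68, 5.84 and 5.88, a log2 fold change of 0.14 (adjusted p = 0.560). With the Xist value as a covariate, the log2 fold changes of the X-linked chains were -0.24 and 0.17 for Col4a5 and 0.29 and 0.14 for Col4a6, brighter probe set first, and none passed 0.10.

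**Figure D2:**
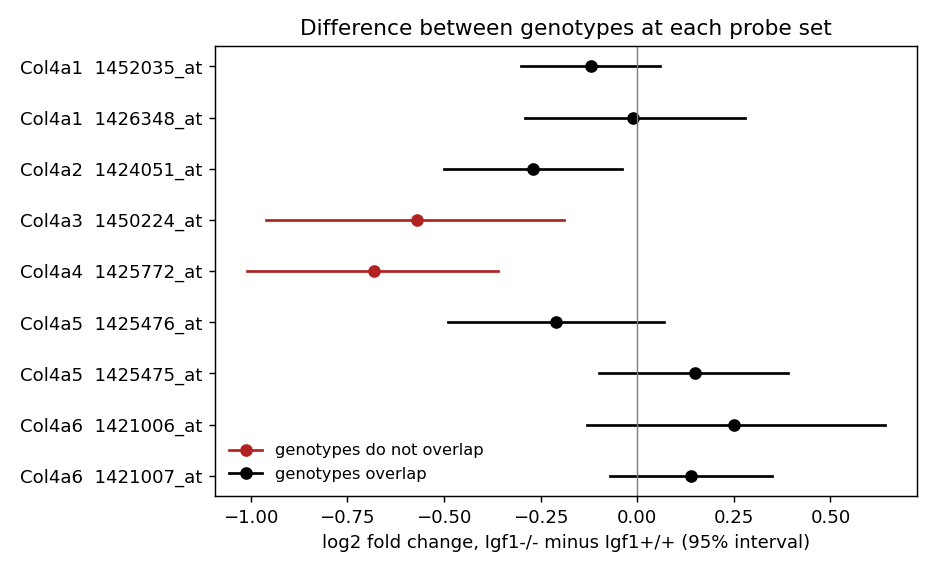
Log2 fold change (Igf1-/- minus Igf1+/+, horizontal axis) of the 9 type IV collagen probe sets with its 95% interval from limma; red marks probe sets at which the genotypes do not overlap. Col4a4 (-0.68) and Col4a3 (-0.57) lie farthest from 0, the interval of Col4a2 also ends under 0, and those of Col4a1, Col4a5 and Col4a6 include 0.

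Whether the members of a head-to-head pair differed between genotypes by the same amount was asked from the difference of their log2 values in each array, at the brightest probe sets, with two-sided exact permutation tests over the 6 arrays. With 3 arrays per genotype the smallest p this test can give is 0.1, so no comparison could be under 0.10. The p values thus cannot show whether the members of a pair differed by the same amount. They were adjusted over 4 comparisons. For Col4a4 minus Col4a3 the difference between genotypes was -0.11 log2 units (exact p = 0.4, adjusted p = 0.4), for Col4a2 minus Col4a1 -0.15 (exact p = 0.2, adjusted p = 0.4) and for Col4a6 minus Col4a5 0.47 (exact p = 0.3, adjusted p = 0.4). Across pairs, Col4a4 minus Col4a1 was -5.93, -5.84 and -6.14 in Igf1-/- arrays and -5.20, -5.36 and -5.64 in Igf1+/+ arrays. These did not overlap, and Col4a4 was lower relative to Col4a1 in Igf1-/- by a mean of -0.56 (exact p = 0.1, the smallest possible, adjusted p = 0.4). With the mean over all probe sets of a gene the 4 differences kept their signs, that of Col4a6 minus Col4a5 was 0.23, and the adjusted p for Col4a4 minus Col4a1 and for Col4a2 minus Col4a1 was 0.2. Col4a6 minus Col4a5 was also 0.26 without Igf1+/+ replicate 1 and 0.74 without Igf1+/+ replicate 3.

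From array to array, Col4a3 and Col4a4 varied together, as did Col4a1 and Col4a2 at their brightest probe sets, while the relation of Col4a5 and Col4a6 had opposite signs at the 2 probe sets of Col4a5. For Col4a3 and Col4a4, Pearson's r was 0.95 over the 6 arrays (exact permutation p = 0.00417, adjusted over 3 pairs 0.00626) and Spearman's coefficient 1.00 (exact permutation p = 0.00278, adjusted 0.00834). Both were separated by genotype, and r of the deviations from the genotype means was 0.88. Of the values themselves, r was 0.97 without the 2 arrays farthest from the median of Col4a3. For Col4a1 and Col4a2, r was 0.95 (exact permutation p = 0.00278, adjusted 0.00626) and Spearman's coefficient 0.94 (exact permutation p = 0.0167, adjusted 0.025), with 0.82 without the 2 farthest arrays and 0.89 for deviations from the genotype means. For Col4a5 and Col4a6, r was -0.53 (exact permutation p = 0.286, adjusted 0.286) and Spearman's coefficient -0.54 (exact permutation p = 0.297, adjusted 0.297), with -0.64 without the 2 farthest arrays and -0.35 for deviations. At the dimmer Col4a5 probe set (1425475_at) r with the brighter Col4a6 probe set was instead 0.89 (exact permutation p = 0.0208, adjusted over all 7 combinations of probe sets 0.0485), Spearman's coefficient was 0.71 (exact permutation p = 0.136, adjusted 0.238), and r was 0.59 without the 2 farthest arrays and 0.85 for deviations. With the dimmer Col4a6 probe set r was -0.65 at the brighter and 0.69 at the dimmer Col4a5 probe set. Between the dimmer Col4a1 probe set and Col4a2 r was 0.63 (exact permutation p = 0.21, adjusted over the 7 combinations 0.245), with 0.44 without the 2 farthest arrays and 0.93 for deviations. The points share an array and its normalization. The permutations mixed the arrays of both genotypes, so their p values also take in differences between genotypes, and r of the deviations was not tested. The partner was not the gene with the highest r. Likeness to the brightest probe set of a chain was ranked among 7040 genes, each at its probe set above the median level with the highest r. Col4a2 was number 47 in likeness to Col4a1 and Col4a4 was number 86 in likeness to Col4a3.

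**Figure D3:**
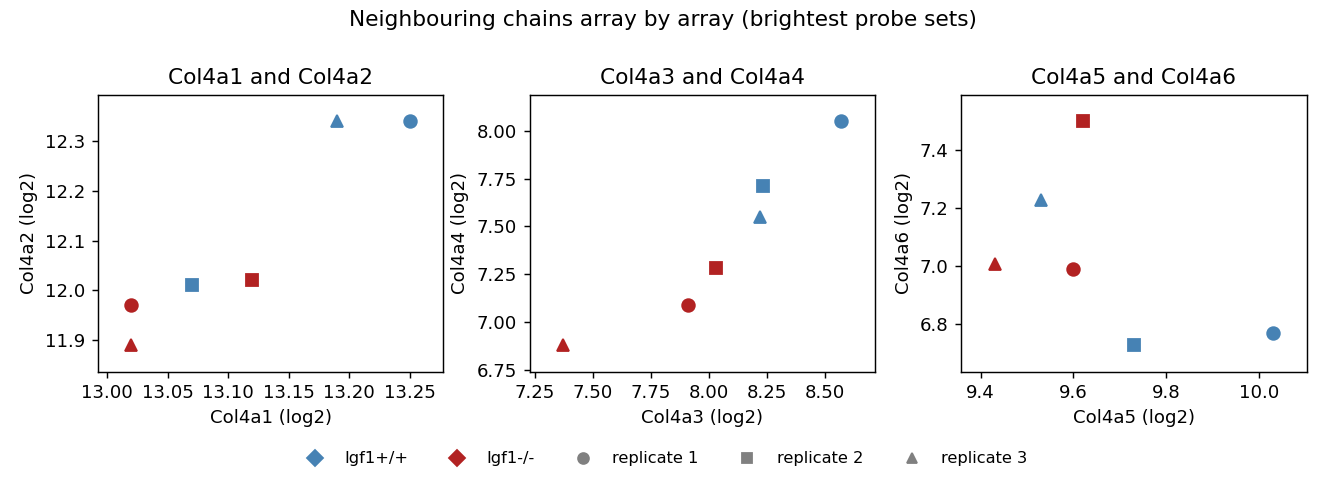
Log2 expression of both members of each head-to-head pair at their brightest probe sets, 1 point per array (blue Igf1+/+, red Igf1-/-, symbols for replicates), with axes that do not start at 0 and differ between panels. Col4a1 with Col4a2 and Col4a3 with Col4a4 vary together (r of 0.95 in each). For Col4a5 with Col4a6 r is -0.53 at these probe sets, and it is 0.89 at the dimmer Col4a5 probe set, which is not drawn.

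The genes whose values were most like those of a chain over the 6 arrays, ranked in the same way, are given as a description. For Col4a3 they were Ubl3 (r = 0.9996), Magi3 (0.9973) and Mpp7 (0.9972), and for Col4a4 Kank2 (0.994), Col13a1 (0.9928), which encodes a membrane collagen, and Wdr20 (0.9913). For Col4a1 they were Ptprf (0.9943), Sgf29 (0.9932) and Tbrg1 (0.9875), and for Col4a2 Gab1 (0.9904), Elf2 (0.9904) and Ccdc117 (0.9871). Col4a5 was most like Edem3 (0.9945), Spred1 (0.992) and Kif1c (0.9896), and Col4a6 most like Ncaph2 (0.9965), Stom (0.9958) and Pknox1 (0.9955). No gene was named for more than 1 chain.

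Genes that act on or with type IV collagen were described by lists, each gene at its brightest probe set. Over all 12393 genes 0.145% were called higher and 0.452% lower in Igf1-/- at an adjusted p under 0.10, with 0.242% higher and 0.573% lower at any of their probe sets, and the median log2 fold change was 0.03. Higher values were found at 7508 and lower at 4885 of these genes, and 7.04% were higher and 5.66% lower at an unadjusted p under 0.05, the shares beside which the counts of each list stand. Of the genes that modify, fold and export collagen chains, 17 of 22 were measured, 7 had higher and 10 lower values, none passed the test and 5 were lower at an unadjusted p under 0.05. Plod1 and Plod2, lysyl hydroxylases of collagen, had log2 fold changes of -0.52 (adjusted p = 0.144) and -0.30 (adjusted p = 0.240), and Sar1b, a GTPase of the vesicles that leave the endoplasmic reticulum, had -0.22 (adjusted p = 0.288). The median of this list was -0.03.

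None of 6 measured receptors of 9 listed passed the test, nor did any at an unadjusted p under 0.05 (median -0.03). The discoidin receptor gene Ddr1 had a log2 fold change of -0.18 (limma adjusted p = 0.548), and the integrin genes Itgb3 and Itgav had 0.14 (adjusted p = 0.588) and -0.09 (adjusted p = 0.679). Itgb3 lay under the median of all probe sets, with a mean log2 value of 5.38. Among 22 of 26 partners in the basement membrane, such as laminins, nidogens and perlecan, 9 had higher and 13 lower values and none passed the test, with 4 higher and 5 lower at an unadjusted p under 0.05 (median -0.06). The fibulin genes Fbln1 and Fbln2 had 0.44 (adjusted p = 0.187) and 0.40 (adjusted p = 0.228), and Npnt, which encodes the integrin ligand nephronectin, had -0.25 (adjusted p = 0.284). Fbln1 passed the level without Igf1+/+ replicate 3 (adjusted p = 0.0822).

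Of 14 measured proteases and inhibitors of 15 listed, 9 had higher and 5 lower values, and none passed the test in limma (2 higher and 3 lower at an unadjusted p under 0.05, median 0.07). The gelatinase genes Mmp2 and Mmp9, whose enzymes cut type IV collagen, had log2 fold changes of 0.31 (adjusted p = 0.142) and 0.42 (adjusted p = 0.203), and Plat, the tissue plasminogen activator gene, had -0.55 (adjusted p = 0.103). Mmp9 and Plat lay under the median of all probe sets, with mean log2 values of 6.02 and 6.73. At Plat the adjusted p was under 0.10 with 5 of 13 alternatives, from 0.0565, among them leaving out Igf1+/+ replicate 3 (0.0913). The other collagens, 26 of 29 measured, had higher values at 19 and lower at 7, and none passed the test (2 higher and 2 lower at an unadjusted p under 0.05, median 0.06). Col9a2, a cartilage collagen gene, had 0.34 (adjusted p = 0.142), Col8a1 0.29 (adjusted p = 0.159) and Col6a3 -0.40 (adjusted p = 0.191). Col9a2 and Col8a1 lay under the median of all probe sets, with mean log2 values of 5.2 and 4.95.

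Of the TGF-beta and SMAD list 13 of 14 genes were measured, and those called lower were Ccn2 and Tgfbi. The other measured genes of the list, such as those of TGF-beta ligands, receptors and SMAD proteins, did not pass the test. Ccn2, the connective tissue growth factor gene, fell at its brightest probe set, with log2 values of 9.68, 9.75 and 9.66 in Igf1-/- and 10.70, 10.41 and 10.49 in Igf1+/+ lungs. The genotypes did not overlap, and the log2 fold change was -0.84 (SE 0.09, limma adjusted p = 0.0100), with adjusted p values of 0.0176 to 0.0614 when each array was left out. Tgfbi, a matrix protein gene induced by TGF-beta, fell at 1 probe set (1456250_x_at, -0.59, adjusted p = 0.0681) and at its brightest had -0.48 (adjusted p = 0.110). Its call was lost without any 1 array other than Igf1+/+ replicate 3, with adjusted p values of 0.136 to 0.176. At their brightest probe sets 5 genes of the list had higher and 8 lower values, with a median of -0.05. At an unadjusted p under 0.05, 2 were lower, again Ccn2 and Tgfbi, and none was higher.

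**Figure D4:**
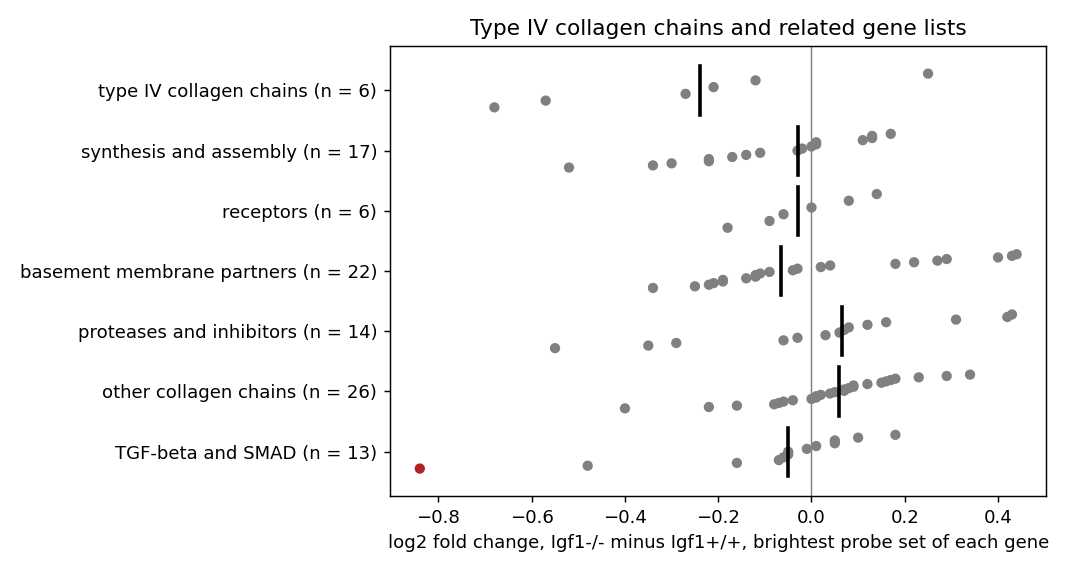
Log2 fold change (Igf1-/- minus Igf1+/+, horizontal axis) of each measured gene at its brightest probe set, for the type IV collagen chains and 6 related lists; n is the number of genes, black bars are medians and red marks an adjusted p under 0.10 in limma. Ccn2 (-0.84) is the red point, and Col4a3 and Col4a4 lie at the low end of the collagen chains.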

How the data were processed

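Total RNA of lungs was hybridized to 3-prime expression arrays, 3 per genotype, and the authors deposited log2 expression values per probe set from RMA, which corrects background, equalizes the distributions of the arrays and summarizes the probes of a set, run together with 6 further arrays of cochlea, which were not analysed here. Its version is not given in the sources used. Precision is limited by the number of arrays. The deposited table gives no detection calls. Of its 22690 probe sets, 64 controls were left out. Of the remaining 22626, 20380 had 1 gene symbol in the platform annotation, 691 had several and 1555 are unnamed here, and 20351 of the named ones were found in RefSeq by Entrez identifier.

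Groups came from the sample labels. All mouse probe sets were fitted in R 4.3.3 with limma 3.58.1, with genotype and no other term, and p values were adjusted over all of them by the method of Benjamini and Hochberg. The brightest probe set is that with the highest mean. The SAM statistic named in the methods was not run. The fit was tested on simulated data. Alternatives were quantile normalization or centring of the 6 arrays, a block for the replicate number, dim probe sets (under the median of the means) left out, a variance trend, array weights, no moderation, control probe sets kept, the Xist value as a covariate, other levels, all probe sets of a gene averaged, and each array left out. The same alternatives for the named genes of the lists, and the other combinations of probe sets in the correlations, were added after seeing the data.

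Members and lists were chosen with earlier results of these data known. Named were all type IV collagen probe sets, list members with an adjusted p under 0.10 at any probe set or, where fewer than 2 passed, the 3 with the lowest p, the 3 genes most correlated with each chain, and Igf1 and Xist. Nppa and the marker genes Aqp5, Rtkn2, Slc4a1, Alas2, Cd52 and Msln were named after their values were seen. Exact permutation tests and correlations used Python 3.11.15 and scipy 1.17.1.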

Additional observations from a re-analysis of the deposited data

How the results depend on the processing

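The count of type IV collagen probe sets at an adjusted p under 0.10 went from 0 to 1, Col4a4 each time, with a variance trend and robust estimates (adjusted p = 0.0884), with array weights (0.0414) and with dim probe sets left out (0.0952), and it was 1 at a level of 0.20. Leaving out 1 array gave counts of 0 to 1. The count of all probe sets was 126, and it was 204 with the variance trend, 628 with array weights, 1 without moderation, 588 at a level of 0.20 and 54 at 0.05. Leaving out 1 array gave 45 to 710, the highest without Igf1+/+ replicate 3, which also had the lowest array weight (0.513), and the lowest without Igf1-/- replicate 3. At the dimmer Col4a1 probe set the log2 fold change of -0.01 became 0.07 with array weights and 0.02 with the Xist covariate, and ranged from -0.13 to 0.08 as each array was left out. The other 8 type IV collagen probe sets kept their sign under every alternative run. The correlation of Col4a5 with Col4a6 went from -0.53 to 0.89 and 0.69 at the dimmer Col4a5 probe set, and that of Col4a1 with Col4a2 from 0.95 to 0.63 at the dimmer Col4a1 probe set.

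Replicate numbers did not pair the arrays: deviations of same-numbered arrays from the genotype means had correlations of -0.0393, -0.228 and -0.137. With the replicate number as a block, 138 probe sets were called, among them 1 of type IV collagen, Col4a4 (adjusted p = 0.0912), and the call of Cd52 was lost (0.121). Without moderation the adjusted p of Col4a4 was 0.427, and those of Ccn2 (0.320), Tgfbi (0.384), Aqp5 (0.367), Rtkn2 (0.389), Slc4a1 (0.177), Alas2 (0.398), Cd52 (0.354) and Msln (0.367) no longer passed. The cause of these shifts was not tested.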
